A study of Caenorhabditis elegans with 10 samples.

Results

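The retained introns described here are the 184 retained intron events in the deposited splicing tables of *Caenorhabditis elegans* carrying mutations in *sftb-1*. They were all the rows typed as retained intron in 3 tables, 10 for K718E, 90 for cer39 and 84 for cer6, out of 1008 splicing events of all types. They fell in 139 distinct introns of 124 genes. The tables list events that passed the false discovery rate of 0.05 set by the authors for mutant against wild type. The retention differences below are therefore the values by which these introns had been chosen, and they are given as a description, with no test.

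Whole synchronized worms of 5 groups were sequenced, with 2 libraries each. The K718E group carried the missense mutation K718E and was taken at the L4 stage after 41 h of growth, with the independent CRISPR alleles cer3 in replicate 1 and cer7 in replicate 2. Its wild type was recovered from the cer3 and the cer7 outcross. The other groups were L2 larvae grown for 23 h. They were wild-type N2, cer39, which joins K718E with R643C and Q552P in the same gene, and cer6, a deletion that produces a premature stop codon. The cer6 larvae were picked by a worm sorter from a balanced strain as the non-red animals, so some animals of other genotypes and product supplied by the mother could be present. Wild-type L2 larvae went through the same sorter window, and cer39 larvae were not sorted. L4 RNA was enriched for poly(A) tails and L2 RNA was depleted of ribosomal RNA, so each mutant was set against wild type of its own stage only. The cer39 and cer6 tables share their wild-type libraries.

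SFTB-1 is the worm ortholog of SF3B1, the largest subunit of the SF3b complex in the U2 small nuclear ribonucleoprotein, which sits on the branch site and helps to fix the 3′ splice site. An intron that is not removed stays in the messenger RNA as a retained intron, and such an RNA may be kept in the nucleus, read through as a longer protein or destroyed by nonsense-mediated decay. Worm introns are mostly short, with little conservation at the branch site and a strong 3′ splice site consensus bound by U2AF. The retention level runs from 0, when every counted read joins the flanking exons, to 1, when every counted read supports the intron. It weighs intron reads against the junction of that intron only, and not against junctions of an overlapping intron. Intron reads and junction reads are first divided by the length that could give rise to them.

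The libraries held between 45313448 and 76420128 reads assigned to transcripts. *sftb-1* itself stood at 3229 and 3580 normalised counts in cer6 against 6152 and 7222 in wild-type L2 (log2 difference ± SE -0.97 ± 0.13, adjusted p = 0.0059 by limma). It was not called in K718E, at 13710 and 15045 against 14652 and 13787 in wild-type L4 (0.02 ± 0.09, adjusted p = 0.94 by limma), or in cer39, at 7333 and 6706 (0.07 ± 0.13, adjusted p = 0.74 by limma). Tissue markers moved with some groups. Of 5 body muscle genes, the myosin genes *unc-54* and *myo-3*, *unc-15* and *unc-22* were called up in K718E, where 0.391% of all genes were up by limma, and the summed level of the list was 263289 to 279493 in wild type and 556956 to 614339 in K718E. Of 4 pharynx genes the myosin genes *myo-1* and *myo-2* were up in K718E. Of 7 germ line genes tested at L2, *pgl-1*, *him-3* and *htp-3* were called down in cer6 and 0 in cer39, where 13.8% and 3.04% of all genes were down. The summed level of the list was 10368 to 12647 in cer6 and 6663 to 8338 in cer39 against 12758 to 19492 in wild type. Of 2 sperm genes tested at L2, *spe-11* was up in cer6, where 13.8% of all genes were up, and *spe-9* was not called. The summed level of the sperm list was low, at 71.8 to 204 in cer6 against 23.8 to 27.7 in wild type. By limma 0 intestine, neuron or hypodermis genes were called in any mutant. The part of these markers in the retention differences was not tested, and in whole worms fewer cells of a type and less RNA per cell cannot be told apart.

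More introns were higher than lower in retention in cer39 and cer6. In cer6 retention was higher in 66 and lower in 18 of 84 introns, in cer39 it was higher in 59 and lower in 31 of 90, and in K718E it was higher in 6 and lower in 4 of 10. Past a difference of 0.1 there were 43 higher and 10 lower introns in cer6, 33 and 17 in cer39, and 3 and 4 in K718E. Of all listed events in those tables, 62.1%, 63.3% and 58.2% were past 0.1, and 26%, 29.7% and 32.8% were past it with higher inclusion. The mutant libraries did not overlap the wild-type libraries in 78, 86 and 9 introns, where 96.6%, 97.9% and 97.8% of listed events of all types did not. Skipped exons had the other direction at L2. Inclusion was higher in 78.6% of the retained introns and 19.4% of the skipped exons of cer6, in 65.6% and 33.3% of those of cer39, and in 60% and 68.2% of those of K718E.

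A larger share of the detected retained introns was listed at L2 than at L4. For cer39 444 retained intron events had been detected, of which 20.3% were in the table, beside 5.88% of events of all types. For cer6 434 had been detected and 19.4% were in the table, beside 6.9%, and for K718E 1448 and 0.691%, beside 0.61%. Stage, RNA selection, allele and the way reads were counted cannot be told apart in that contrast. The reads are labelled as junction counts for cer39 and cer6 and not for K718E. Reads per intron and library ran from 1 to 15064, with a median of 200 in the cer39 table, 167 in the cer6 table and 33.5 in the K718E table, and 14 events had fewer than 10 reads in at least 1 library. Just past and just short of a difference of 0.1 stood *aat-5* (-0.104) and *zfp-3* (0.0990) in cer39, *algn-14* (0.105) and *ari-1.2* (0.0993) in cer6, and *cdc-26* (-0.190) and *coel-1* (0.0951) in K718E.

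**Figure D1:**
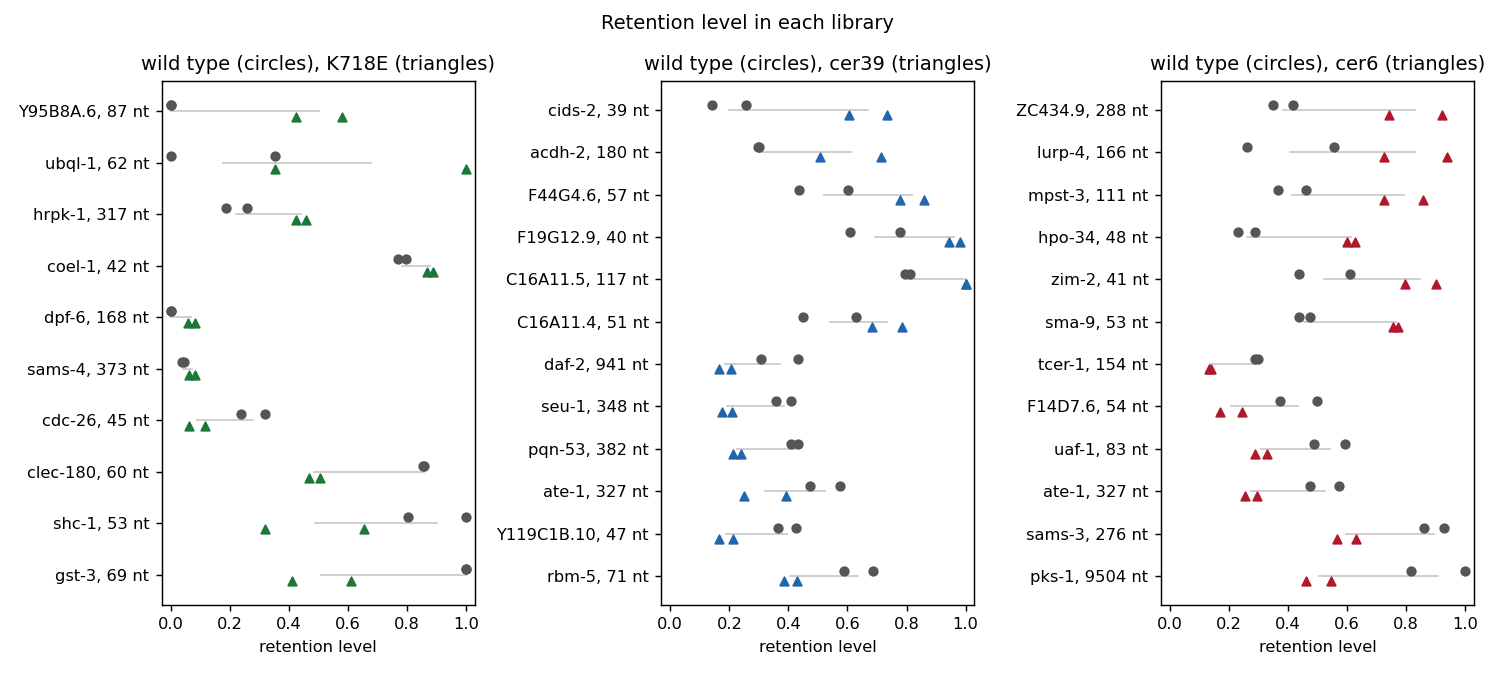
Retention level (x axis, 0 to 1) of the 10 introns of the K718E table and of the 6 introns with the largest difference in each direction for cer39 and cer6, each row a gene with its intron length. Circles are the 2 wild-type libraries, triangles the 2 mutant libraries, and grey lines join the group means. The cer39 and cer6 rows were taken only from introns with 10 or more reads in every library and groups that do not overlap. In K718E the groups are apart in every row except ubql-1.

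Few introns were listed for K718E. The largest fall with 10 or more reads in every library was in a 60 nt intron of *clec-180*, which encodes a C-type lectin (chromosome IV, 7572720 to 7572779, WBcel235), within the coding sequence of the retained form. Its retention level was 0.859 and 0.854 in wild type and 0.506 and 0.468 in K718E, with at least 24 reads in every library. In the opposite direction, a 317 nt intron of *hrpk-1*, the worm homologue of the RNA-binding protein hnRNP K (chromosome I, 6318275 to 6318591), stood at 0.187 and 0.257 in wild type and at 0.426 and 0.458 in the mutant. A 45 nt intron of *cdc-26*, a subunit of the anaphase-promoting complex (chromosome I, 10639874 to 10639918), stood at 0.238 and 0.319 and at 0.0611 and 0.117. These were the 3 introns that were past 0.1, kept the groups apart and had 10 or more reads in every library.

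The remaining K718E introns moved less or rested on few reads. The 42 nt intron of *coel-1*, which encodes a tubulin cofactor E-like protein, stood at 0.798 and 0.769 in wild type and 0.888 and 0.870 in K718E over at least 395 reads. A 168 nt intron of *dpf-6*, a dipeptidyl peptidase family gene, had no intron read in either wild-type library and levels of 0.0810 and 0.0581 in K718E. In *gst-3* (a glutathione S-transferase gene), *shc-1* (an Shc adaptor gene), *ubql-1* (a ubiquilin gene) and Y95B8A.6 the smallest library had 4, 8, 1 and 2 reads. Their differences of -0.490, -0.415, 0.500 and 0.503 were the largest of the table in size, and the *ubql-1* groups met at one value.

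In cer39 the largest rise was in a 39 nt intron of *cids-2* (chromosome I, 8807382 to 8807420). Its retention level was 0.141 and 0.256 in wild type and 0.606 and 0.734 in cer39, a difference of 0.471 with at least 26 reads. The 180 nt intron of *acdh-2*, an acyl-CoA dehydrogenase gene (chromosome II, 5546810 to 5546989), went from 0.296 and 0.302 to 0.714 and 0.507. F44G4.6 (57 nt) went from 0.602 and 0.437 to 0.779 and 0.859, and F19G12.9 (40 nt) from 0.778 and 0.608 to 0.981 and 0.942. These introns were named only from those with 10 or more reads in every library and groups that do not overlap. That both mutant libraries lay above both wild-type libraries therefore follows from the choice. The listed C16A11.5 intron reached 1 in both cer39 libraries from 0.811 and 0.796, with 10 reads in its smallest library. In the nearby gene C16A11.4 (51 nt) the levels were 0.448 and 0.630 in wild type and 0.785 and 0.684 in cer39, so the groups nearly met.

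The introns that lost retention in cer39 included some in a splicing regulator and a hormone receptor. Both introns listed for *rbm-5*, the worm ortholog of the human splicing regulator RBM5, were lower. The 71 nt intron (chromosome I, 6215988 to 6216058) went from 0.685 and 0.587 to 0.386 and 0.428, and the 86 nt intron from 0.378 and 0.507 to 0.231 and 0.320. A 941 nt intron of *daf-2*, the insulin and IGF-1 receptor gene (chromosome III, 3006038 to 3006978), went from 0.432 and 0.308 to 0.206 and 0.164, and its annotated retained form has no coding sequence. A 327 nt intron of *ate-1*, which encodes arginyltransferase (chromosome I, 9614404 to 9614730), went from 0.473 and 0.574 to 0.251 and 0.393. The listed introns of *seu-1* (348 nt, 0.358 and 0.409 in wild type), *pqn-53* (382 nt, 0.410 and 0.434) and Y119C1B.10 (47 nt, 0.364 and 0.425) stood at 0.209 and 0.174, 0.214 and 0.238 and 0.165 and 0.214 in cer39. None of the 3 had fewer than 55 reads in a library, and their groups were apart, as the choice of named introns required.

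The 6 largest rises in cer6 with 10 or more reads in every library and the groups apart all ended above 0.6 in both mutant libraries. A 288 nt intron of ZC434.9 (chromosome I, 10359136 to 10359423) went from 0.418 and 0.350 to 0.742 and 0.920. The 48 nt intron of *hpo-34* (chromosome X, 11515072 to 11515119), with at least 357 reads the best covered of the 6, went from 0.232 and 0.287 to 0.601 and 0.626. A 111 nt intron of *mpst-3*, a mercaptopyruvate sulfurtransferase gene, went from 0.365 and 0.461 to 0.725 and 0.857. *sma-9* encodes a Schnurri-type zinc finger protein of the BMP pathway that sets body size. Its 53 nt intron went from 0.439 and 0.473 to 0.773 and 0.756. In *lurp-4* (166 nt) the wild-type libraries were far apart, at 0.555 and 0.259, and cer6 stood at 0.726 and 0.937. In *zim-2* (41 nt), a gene of meiotic chromosome pairing, levels of 0.437 and 0.608 and then 0.901 and 0.795 rested on as few as 11 reads. A second measure, the retained share among annotated transcript forms, was not on the same side of wild type for the *sma-9* and *zim-2* introns.

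Among the introns lower in cer6 was one of *uaf-1*, the large subunit of U2AF, which binds the 3′ splice site. This 83 nt intron (chromosome III, 1067953 to 1068035) went from 0.594 and 0.487 to 0.290 and 0.330. The largest fall was in a 9504 nt intron of *pks-1*, a polyketide synthase gene (chromosome X, 5430794 to 5440297), from 1 and 0.817 to 0.462 and 0.547. The *ate-1* intron, listed for cer39 too, stood at 0.295 and 0.253 in cer6. F14D7.6 (54 nt) went from 0.498 and 0.372 to 0.246 and 0.170. A 154 nt intron of *tcer-1*, a transcription elongation and splicing factor gene (chromosome II, 7048284 to 7048437), went from 0.287 and 0.299 to 0.132 and 0.137. The libraries of *tcer-1* agreed closely within each group, and those of F14D7.6 spread more.

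A smaller share of the introns over 200 nt than of the shorter introns had higher retention at L2, as a description with no test. In cer6 35 of 40 introns of 60 nt or less, 14 of 16 of 61 to 200 nt and 17 of 28 over 200 nt were higher, so the classes up to 200 nt had the same share. In cer39 the counts were 31 of 39, 13 of 20 and 15 of 31. The median difference in cer6 was 0.139, 0.174 and 0.0333 in the 3 classes, in order of length. The median length was 55 nt for the higher and 265.5 nt for the lower introns in cer6, and 54 nt and 201 nt in cer39. Spearman's rho between length and retention difference was -0.290 over the 84 cer6 introns and -0.301 over the 90 cer39 introns, across introns that share libraries. With 10 or more reads in every library it was -0.328 and -0.291. K718E ran the other way on few introns, with 1 of 4 short introns and both introns over 200 nt higher. The L2 tables label their reads as junction counts while their form lengths span the whole intron. If only junction reads were counted, the levels of long introns are too low. Without division by length rho was -0.283 in cer6 and -0.301 in cer39, and 0 introns changed direction in any table. The lengths are constant within an intron, so introns whose groups did not overlap could not change direction. Which reads were counted was not tested.

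Short introns were about as frequent in the tables as in the genome. They made up 47.6% of the cer6 and 43.3% of the cer39 introns, and 47.4% of the 109516 introns annotated in protein-coding genes were 60 nt or less. The median listed intron had 75 nt in cer6, 88.5 nt in cer39 and 65.5 nt in K718E. All annotated introns had a median of 68 nt, and the 1543 with an annotated retained form 88 nt.

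**Figure D2:**
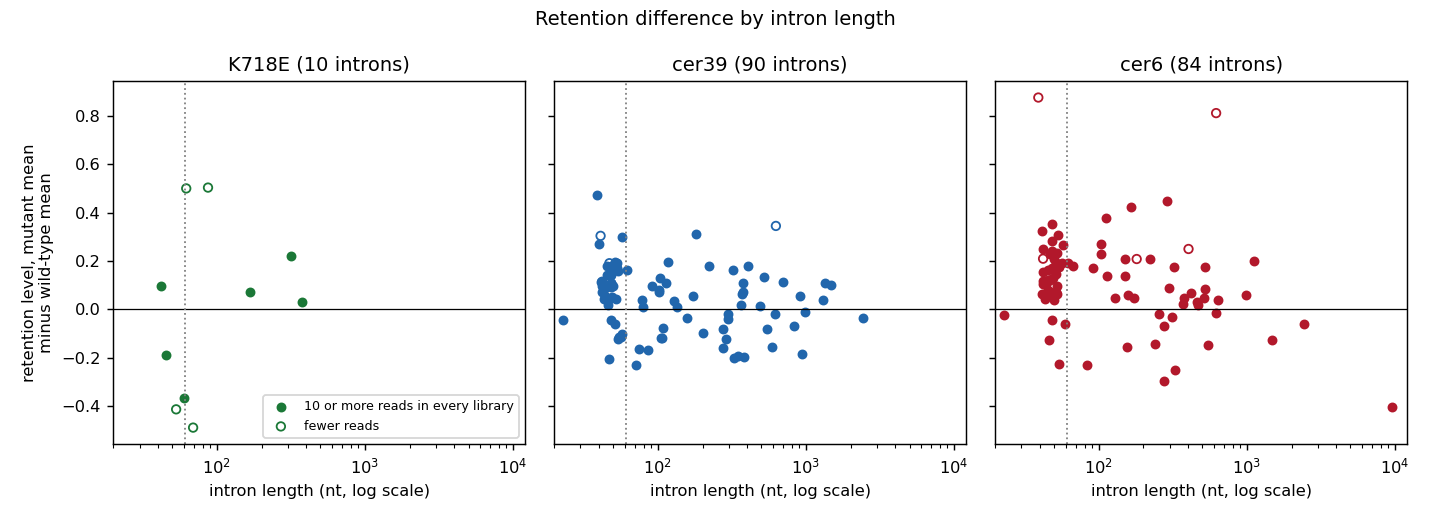
Retention difference, mutant mean minus wild-type mean (y axis), against intron length in nt (x axis, log scale) for each listed intron, by allele. Filled points have 10 or more reads in every library and open points fewer, and the dotted line marks 60 nt. Up to the line 31 of 39 points in cer39 and 35 of 40 in cer6 lie above 0. Between 61 and 200 nt 13 of 20 and 14 of 16 do, and over 200 nt 15 of 31 and 17 of 28.

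**Figure D3:**
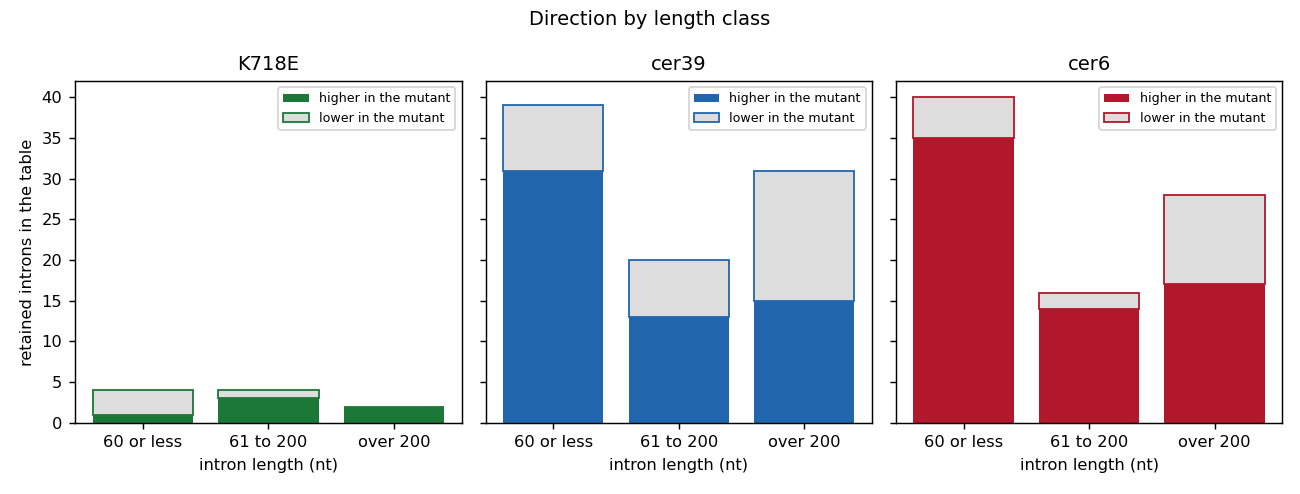
Number of listed introns (y axis) in 3 classes of intron length in nt (x axis), split into those with higher (coloured) and lower (grey) retention in the mutant. In cer6 5 of 40 introns of 60 nt or less, 2 of 16 of 61 to 200 nt and 11 of 28 over 200 nt are lower.

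Divisibility by 3 differed between kinds of annotated retained form. A form annotated as coding through the intron mostly has to keep the reading frame, so the contrast can follow from the annotation. It is given as a description. Where the annotated retained form reads through the intron as coding sequence, 50 of 57 events had a length divisible by 3 and the median was 51 nt. Where the annotated retained form has no coding sequence, 13 of 45 were divisible by 3 and the median was 320 nt. Of all 184 events 86 were divisible by 3, beside 33.1% of all annotated introns and 36.2% of those with a retained form. In 18 events an end of the coding sequence lay inside the intron, 9 lay in a 5′ UTR and 7 in a 3′ UTR, 33 had no annotated retained form, and the rest had retained forms of more than 1 kind. Among the short events with higher retention 37 of 67 had a retained form that stays coding, and 5 of 16 of those with lower retention did, with introns in both L2 tables counted in each.

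Examples of readable short introns, chosen after their values were seen, came from regulators of transcription. *daf-12*, a steroid hormone receptor gene of the dauer pathway, has a 48 nt intron that went from 0.456 and 0.611 to 0.737 and 0.689 in cer39. *din-1*, which encodes a corepressor that partners DAF-12, has a 45 nt intron at 0.584 and 0.737 in wild type, with 0.853 and 0.829 for cer39 and 0.853 and 0.796 for cer6. In *zip-1*, a bZIP gene, a 51 nt intron went from 0.335 and 0.317 to 0.442 and 0.505 in cer6. None of these groups overlapped. Over the transcription factor and cofactor genes, grouped after the values were seen, 10 events were higher and 2 lower in cer39, and 9 were higher and 2 lower in cer6, where 65.6% and 78.6% of all retained introns of those tables were higher.

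*xbp-1* stood apart for its mechanism. Its 23 nt intron, the shortest of all, is removed by the nuclease IRE-1 in the unfolded protein response and not by the spliceosome. It was chosen for mention after its values were seen. The wild-type levels were 0.969 and 0.957, cer39 lay below both with 0.913 and 0.925, and cer6 overlapped wild type with 0.957 and 0.917, over at least 1374 reads.

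The cer39 and cer6 tables had 44 introns in common, 48.9% of the cer39 list and 52.4% of the cer6 list. Both lists used the same wild-type libraries, so a deviation there can enter both, and nothing is read from the overlap. Set side by side, both cer6 libraries were above both cer39 libraries in 15 of these introns, below in 7 and overlapping in 22, and the median of cer6 minus cer39 was 0.0189. In *hpo-34* cer39 stood at 0.380 and 0.458, between wild type and cer6. In *sma-9* (53 nt) cer39 was likewise between them, at 0.616 and 0.634. F44G4.6 reached like levels in both alleles, with 0.746 and 0.823 for cer6. The *acdh-2* intron stood at 0.506 and 0.507 in cer6, with 9 reads in its smallest library.

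**Figure D4:**
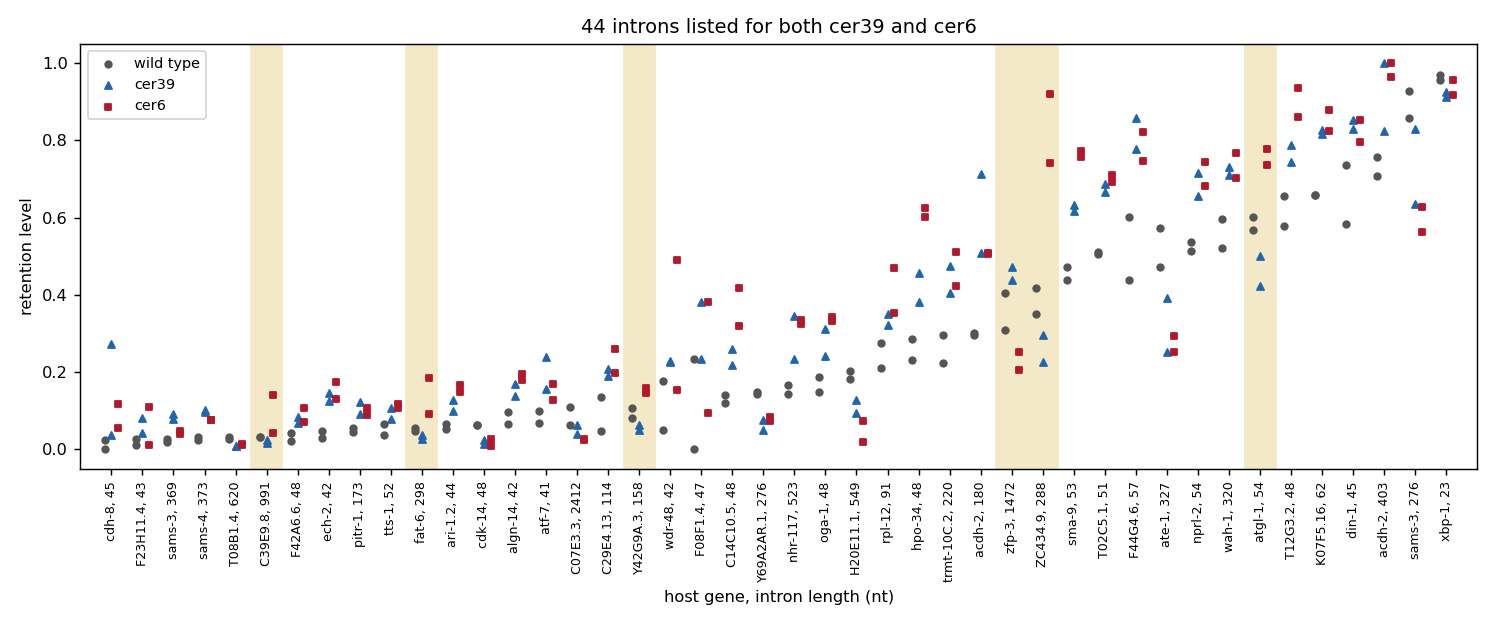
Retention level (y axis) of the 44 introns listed for both cer39 and cer6, ordered by the wild-type mean, with host gene and intron length in nt on the x axis. Circles are wild type, triangles cer39 and squares cer6, 2 libraries each, and the 6 shaded introns have cer39 and cer6 on opposite sides of wild type. In hpo-34 the symbols climb from wild type through cer39 to cer6.

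In 6 of the 44 introns cer39 and cer6 were on opposite sides of wild type, and none of the groups overlapped. The ZC434.9 intron was below wild type in cer39, at 0.227 and 0.296. The other 5 were chosen after their values were seen. A 54 nt intron of *atgl-1*, the adipose triglyceride lipase gene, had wild-type levels of 0.601 and 0.568, with 0.424 and 0.500 for cer39 and 0.779 and 0.738 for cer6. A 1472 nt intron of *zfp-3* had the reverse order, with 0.405 and 0.309 for wild type, 0.473 and 0.438 for cer39 and 0.253 and 0.205 for cer6. The introns of *fat-6*, a fatty acid desaturase gene, Y42G9A.3 and C39E9.8 differed from wild type by less than 0.1 in each allele.

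Only 1 intron was in all 3 tables, the 373 nt intron of *sams-4* (chromosome IV, 5845605 to 5845977). SAMS-3 and SAMS-4 are closely similar S-adenosylmethionine synthetases encoded next to each other, so reads may be shared between the genes and the values are uncertain. The *sams-4* levels were 0.0394 and 0.0455 in wild-type L4 and 0.0839 and 0.0612 in K718E. At L2 they were 0.0248 and 0.0316 in wild type, and 0.101 and 0.0976 for cer39 and 0.0766 and 0.0761 for cer6. Every mutant value was above wild type of the same stage and none was above 0.101. In *sams-3* the 369 nt intron went from 0.0197 and 0.0257 to 0.0920 and 0.0776 in cer39 and 0.0391 and 0.0483 in cer6. A 276 nt intron from the same donor to another acceptor went the other way, from 0.927 and 0.859 to 0.636 and 0.831 in cer39 and 0.629 and 0.564 in cer6. It lies within the 369 nt intron, and its level leaves out reads joined at the other acceptor. Its high level is therefore no share of all transcripts, and the part of acceptor choice was not tested.

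Some genes of splicing and RNA processing hosted listed introns. Of the 26 genes on the splicing factor list, *rbm-5* hosted introns in cer39, 6 genes did so in cer6 and 0 in K718E. Over all genes, 83 hosted listed introns in cer39 and 78 in cer6, where 15011 genes were tested at L2. The list also holds the reporter gene *tos-1* and the mRNA export gene *aly-3*. It was drawn up with earlier results known, so nothing is read from the count. In cer6 a 103 nt intron of the SR protein gene *rsp-1* went from 0.398 and 0.443 to 0.715 and 0.580, and an overlapping 511 nt intron with the same acceptor from 0.0965 and 0.102 to 0.158 and 0.131. A 104 nt intron in the 3′ UTR of *rsp-5*, another SR protein gene, went from 0.498 and 0.261 to 0.631 and 0.668. The retention levels of these SR protein introns were higher in both cer6 libraries. The retained share among annotated transcript forms of the 103 nt *rsp-1* intron was instead lower in cer6, with 0.723 and 0.669 in wild type and 0.640 and 0.641 in cer6.

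*tos-1*, whose splicing has served as a reporter in the worm, had a 149 nt intron at 0.501 and 0.487 in wild type and 0.608 and 0.653 in cer6, over at least 2970 reads. *aly-3*, an mRNA export adaptor gene, had a 416 nt intron at 0.111 and 0.118 and 0.214 and 0.148. *tcer-1* held a pair of overlapping introns that share the acceptor. Its 518 nt intron went from 0.213 and 0.202 to 0.326 and 0.260 in cer6, opposite to the 154 nt intron. Each level counts the junction of its own intron only, so they are not shares of one total.

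Levels of splicing factor genes were also set against wild type. Of the 26 genes, 11 were called up and 4 down in cer6, where 13.8% of all genes tested were up and 13.8% down. Those down were *sftb-1* itself, the SR protein genes *rsp-2* and *rsp-6*, and *aly-3*. In cer39 the SR protein gene *rsp-3*, *rsp-7*, the SF3b gene *sftb-6* and *smr-1* were up and 0 were down, beside 4.12% and 3.04%, and all 4 were up in cer6 too. In K718E 0 were called by limma. Partners of SFTB-1 were among those up in cer6, with *teg-4*, the SF3B3 ortholog, at 1.19 ± 0.10, adjusted p = 0.0024, *phf-5*, another SF3b subunit gene, at 1.08 ± 0.16, adjusted p = 0.0075 and *uaf-2*, the small subunit of U2AF, at 1.01 ± 0.12, adjusted p = 0.0045 (log2 difference ± SE, limma). *uaf-1* was not called (0.27 ± 0.14, adjusted p = 0.23 by limma). Of 9 nonsense-mediated decay genes, *smg-1* was down in cer39 (-0.63 ± 0.12, adjusted p = 0.042 by limma), *smg-7* was up in cer6 (0.49 ± 0.11, adjusted p = 0.030 by limma), and 0 were called in K718E.

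Genes of RNA processing and translation, grouped after the values were seen, gave 8 higher and 2 lower events in cer6 and 4 higher and 2 lower in cer39, near the shares of all retained introns (78.6% and 65.6% higher). The 3 introns named next were chosen after their values were seen. A 91 nt intron of the ribosomal protein gene *rpl-12* went from 0.275 and 0.209 to 0.351 and 0.322 in cer39 and 0.471 and 0.354 in cer6. A 220 nt intron of *trmt-10C.2*, a tRNA methyltransferase gene, went from 0.225 and 0.297 to 0.476 and 0.405 in cer39 and 0.424 and 0.512 in cer6. Its retained share among annotated transcript forms, a second measure, ran the other way, from 0.764 and 0.669 in wild type to 0.463 and 0.570 in cer39 and 0.509 and 0.409 in cer6. Metabolic genes, grouped in the same way, gave 11 higher and 4 lower events in cer39 and 10 higher and 2 lower in cer6, beside the same shares over all retained introns. Among them, a 588 nt intron of *plin-1*, which encodes the lipid droplet protein perilipin, went down in cer39 from 0.906 and 0.892 to 0.750 and 0.739.

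Some listed introns overlap another annotated gene, so intron reads may belong to that gene, and the strand setting of the splicing software is not stated. The *pqn-53* intron overlaps the non-coding RNA R07B7.20, and the 2412 nt intron of C07E3.3 overlaps C07E3.17, each on the same strand. C07E3.3 had wild-type levels of 0.0631 and 0.110, with 0.0637 and 0.0405 for cer39, which overlapped, and 0.0279 and 0.0247 for cer6, which did not. The *pks-1* intron lies across from the non-coding RNA C41A3.6, and the introns of Y42G9A.3 and F26F4.9 lie across from the protein-coding genes *wht-7* and F26F4.2. Y42G9A.3 (158 nt) had 0.0809 and 0.107 in wild type, with 0.0511 and 0.0637 for cer39 and 0.160 and 0.145 for cer6. F26F4.9 (912 nt) went from 0.0756 and 0.0958 to 0.136 and 0.144 in cer39. Except for C07E3.3 in cer39, these groups were apart.

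Some listed introns had competing splice sites, and their levels leave out reads joined at the competing site. In 64 of the 184 events the annotation has another intron that shares the donor or the acceptor, and 26 events overlapped another listed event. Introns in both L2 tables are counted in each, and the share over all annotated introns was not taken. In *sma-9* the 50 nt and 53 nt introns share a donor, and both were higher in cer6, the 50 nt intron going from 0.569 and 0.445 to 0.696 and 0.731. In *cdc-26*, whose 45 nt intron was lower in K718E, a different intron of 47 nt was higher in cer6, from 0.138 and 0.186 to 0.410 and 0.369. The largest differences of the cer6 table, 0.876 in *oac-51* and 0.812 in the nuclear hormone receptor gene *nhr-179*, had 1 and 3 reads in their smallest library. These introns of *sma-9*, *cdc-26*, *oac-51* and *nhr-179* were chosen after their values were seen.

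Host gene levels were compared next. For K718E 0 of 10 host genes were called by limma, with 2 at an unadjusted p under 0.05, and 0 by edgeR. Of all genes 0.391% were up and 0.00631% down by limma, and 0.354% and 0.00631% by edgeR. With the replicate number as a block, which ties each mutant to the wild type of its own outcross, 1 host was called up, and DESeq2 called 1 up, where it called 4.03% of all genes up and 3.57% down. The K718E host with the largest change was *dpf-6*, at 289 and 400 normalised counts in wild type and 519 and 596 in K718E (0.71 ± 0.18, adjusted p = 0.13 by limma). For cer39 Y42G9A.3 and K07F5.16 were up and R08E5.1, *tnt-3*, *sams-3* and C16A11.4 down among 82 hosts tested by limma, where 4.12% and 3.04% of all genes were. By edgeR 2 were up and 2 down (4.74% and 2.59% of all genes), and by DESeq2 4 and 11 (8.69% and 8.45%). Without either cer39 library limma called 0 hosts and 0 genes of any kind, without either cer6 library 0 hosts up and 3 down, and without replicate 2 of wild type 1 up and 2 down. For cer6 8 of 77 were up and 15 down by limma, where 13.8% and 13.8% of all genes were, and by edgeR 8 and 13 (14.7% and 12.6% of all genes). Without either cer6 library there were 5 up and 5 down, and without either cer39 library, which shares the fit, 4 and 8. By DESeq2 10 were up and 18 down in cer6, beside 15.9% and 16.8% of all genes.

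Some hosts of named introns changed strongly in level. *acdh-2* fell from 10500 and 7014 normalised counts in wild-type L2 to 494 and 41.7 in cer6 (-5.88 ± 1.13, adjusted p = 0.017 by limma). ZC434.9 fell from 8001 and 4309 to 983 and 1092 (-2.50 ± 0.32, adjusted p = 0.0052 by limma). *tos-1* rose from 15188 and 14750 to 25223 and 29427 (0.86 ± 0.14, adjusted p = 0.0094 by limma). All 3 had higher retention in cer6, and 2 of them fell in level. They are examples out of the 8 hosts called up and 15 called down in cer6. The *acdh-2* introns had 8 and 9 reads in their smallest library of that comparison. For *tos-1* the retained share among annotated transcript forms was not on the same side of wild type as the retention level. In cer39 *sams-3* fell from 8760 and 6242 to 2942 and 4039 (-1.10 ± 0.22, adjusted p = 0.048 by limma) and C16A11.4 from 816 and 1026 to 569 and 528 (-0.74 ± 0.15, adjusted p = 0.046 by limma). *acdh-2* was lower in cer39 too, at 234 and 505, but was not called (-4.64 ± 1.13, adjusted p = 0.067 by limma). Over hosts tested the median log2 difference was -0.08 in cer39 and -0.02 in cer6, beside 0.01 and -0.01 over all genes.

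Introns listed at L2 were followed into the L4 libraries, which had no part in the L2 lists. For 100 of these introns the deposited transcript values hold an annotated retained form and an annotated spliced form, and the retained share of their sum was taken in each library. This share rests on whole transcripts and not on the intron alone. At L2 it lay on the same side of wild type as the retention level in 64 of 69 cer39 introns and 55 of 64 cer6 introns. Both measures come from the same L2 libraries there, so a like direction is no independent support. Among the exceptions in cer6 were the introns of *sams-3* (276 nt), *tos-1*, *sma-9* (50 and 53 nt), *zim-2*, *rsp-1* (103 nt) and *trmt-10C.2*. At L4 the share was higher in K718E in 60 introns and lower in 33, with a median size of difference of 0.0162. The median difference with its sign was 0.0047, and the K718E and wild-type libraries were apart in 47 introns. No such share was taken over other introns, so no trend is read from the split. Over the 65 cer39 introns measured at both stages the median size was 0.066 in cer39 and 0.0178 in K718E, and over 61 cer6 introns it was 0.0884 in cer6 and 0.0178 in K718E. The introns had been listed for their change in those L2 libraries and not in K718E, so a larger size at L2 can follow from the choice and is read as no contrast between alleles. Only F44G4.6 and C46H11.10 kept the K718E and wild-type libraries apart with means more than 0.1 apart.

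*hpo-34* was also higher in K718E. Its retained share was 0.299 and 0.297 in wild-type L4 and 0.419 and 0.348 in K718E over sums of at least 7345 normalised counts. F44G4.6 went from 0.321 and 0.286 to 0.609 and 0.500, on sums of 15.2 to 28.7 normalised counts. C46H11.10, higher in retention in cer39, had 1 and 1 in wild type and 0.959 and 0.590 in K718E. In reverse, the *clec-180* intron that was lower in K718E had shares of 0.562 and 0.592 in wild-type L2, with 0.580 and 0.575 for cer39 and 0.549 and 0.588 for cer6, so no group was clear of the others.

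**Figure D5:**
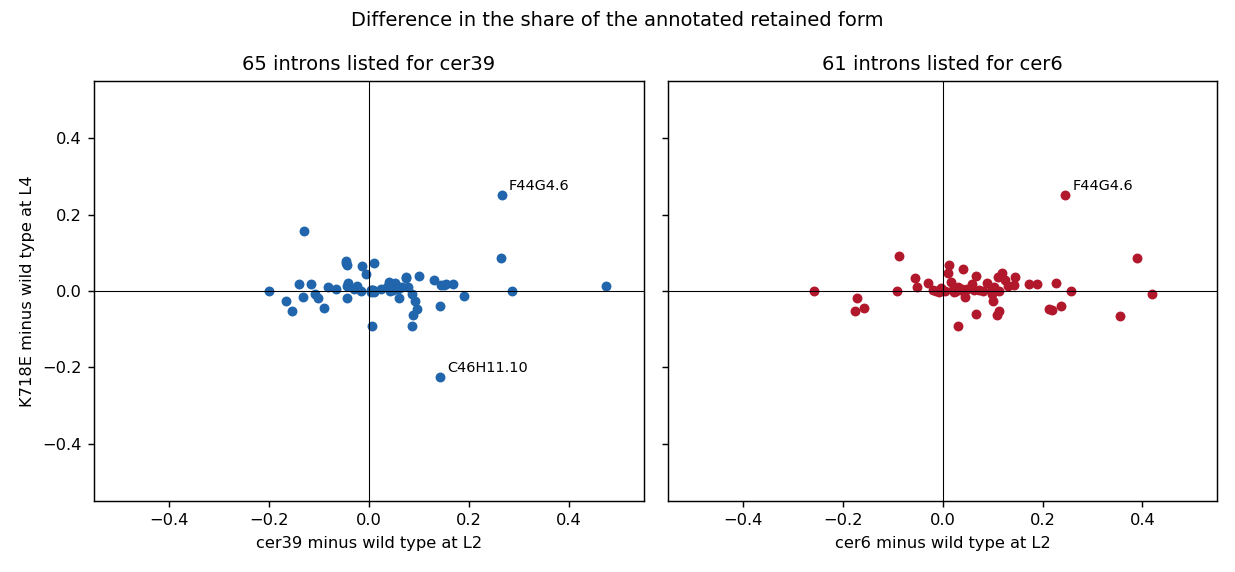
Difference in the retained share of annotated transcript forms, K718E minus wild type at L4 (y axis), against cer39 (left, 65 introns) or cer6 (right, 61 introns) minus wild type at L2 (x axis). Each point is an intron listed in that L2 table. The introns were listed for their change along x, so the wider spread there (median size 0.066 and 0.0884, beside 0.0178 along y) can follow from the choice. F44G4.6 lies at the upper right in both panels.

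The retained-form transcripts themselves were tested in K718E. Of 97 from introns listed at L2, limma called 0, where 0.00888% of all transcripts were called, and 13 had an unadjusted p under 0.05, where 13.3% of all transcripts did. By edgeR 0 were called, where 0% of all transcripts were called, and 11 had an unadjusted p under 0.05, where 12.7% of all transcripts did. DESeq2 called 5 of the 41 it tested, 3 of them up, beside 7.01% of all transcripts.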

How the data were processed

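The authors made the files from paired reads with STAR and RSEM on WBcel235 and called splicing events with rMATS, for which no source used here gives a version. The splicing tables hold counts of inclusion and skipping reads per library, as deposited, with 6 columns of inclusion levels that were not used. The transcript tables hold a normalized signal, RSEM counts divided by DESeq2 size factors by the authors. The authors' fold changes, p-values, FDR and level differences were not used. Retention levels were recomputed from the reads and form lengths (inclusion form length was intron length plus 75 nt in all 184 events, although the L2 tables label the reads as junction counts). The 2 libraries inside a cell carry no replicate number, so introns were not paired. Gene values were summed over transcripts (1 misaligned transcript left out) and tested in limma 3.58.1 on log2(value + 1) with a trend, genes with a mean of at least 10 and Benjamini-Hochberg adjustment at 0.05, with L4 and L2 libraries in separate fits. Whole reads were recovered from the transcript values (100.0% of values within 0.1 of a whole number), and tested in edgeR 4.0.16 and DESeq2 1.42.0. Counts with 200 changed genes were simulated with a dispersion of 0.01 for every gene. On these, limma recovered 84.1% of the 2-fold changes in the K718E design, 88.7% in cer39 and 93.9% in cer6, over 15868, 15080 and 15080 genes. Of the 1.5-fold changes it recovered 63.6%, 55.9% and 53.4%. The dispersion was not fitted to the real libraries, so these shares are no measure of what was missed in them. Introns were matched to Ensembl annotation release 115 of the same build. P-values measure the spread between these libraries, which may be technical in part. Named introns were all of K718E, the 6 with the largest difference in each direction for cer39 and for cer6 with 10 reads and groups apart, those in several tables with the 6 largest mean differences, and those in splicing factor genes or overlapping another gene. Members, lists and rules were chosen with earlier results of these data known. The replicate numbers pair the L4 libraries, since the labels name the same outcross for the wild-type sibling (correlation of their deviations -0.10).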

Additional observations from a re-analysis of the deposited data

Results flagged for a closer look

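In 6 introns listed for both cer39 and cer6, every library of one allele was above and every library of the other below both wild-type libraries. The difference between the alleles was not tested, and both were set against the same wild-type libraries. As differences in retention level from wild type, ZC434.9 (288 nt) was at -0.122 in cer39 and 0.448 in cer6, *atgl-1* (54 nt) at -0.123 and 0.174, *zfp-3* (1472 nt) at 0.0990 and -0.128, *fat-6* (298 nt) at -0.0201 and 0.0873, Y42G9A.3 (158 nt) at -0.0368 and 0.0580, and C39E9.8 (991 nt) at -0.0113 and 0.0600.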

How the results depend on the processing

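Counts of retained introns past 0.1 moved by over 1.5 times with the size or reads required, by construction. Over 0.2 there were 6 higher and 3 lower introns in cer39, and 23 and 5 in cer6. With no minimum there were 59 and 31, 66 and 18, and 6 higher in K718E. In K718E, requiring 10 or 20 reads gave 1 higher and 2 lower introns, and the share of reads without length normalization gave 5 higher. Leaving out 1 library at a time gave 3 to 4 higher and 4 lower in K718E, 30 to 33 and 13 to 17 in cer39, and 40 to 47 and 9 to 10 in cer6, and 3 cer6 introns and 0 others changed direction. All other alternatives stayed within 1.5 times.

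Host gene counts depended more on the test. DESeq2 called 1 up in K718E, and 4 up and 11 down in cer39. edgeR called 2 down in cer39. With only the 4 libraries compared, 0 were up in cer39, and 4 up and 8 down in cer6. Leaving out 1 library gave 0 to 1 up and 0 to 1 down in K718E, 0 to 1 and 0 to 5 in cer39, and 4 to 11 and 5 to 12 in cer6. Fits that leave a group with 1 library assume that it varies like the others. With the replicate number as a block, 1 host was up in K718E, 0 up and 2 down in cer39, and 7 and 11 in cer6. With the K718E numbers crossed, an alternative chosen after seeing the data, 0 were up. Over all genes 63 were called in K718E by limma, against 877 by DESeq2, 625 with the block, 217 with it crossed, 40 with no filter on low values, and 82 to 5173 without 1 library (5173 without K718E replicate 2). In cer39 it called 1074, against 2572 by DESeq2, 536 with the block, 410 with 4 libraries and 0 to 1244 without 1 library, and in cer6 4142, against 2473 with 4 libraries and 1891 to 3983 without 1 library. At L2 the samples share only a number (correlations of deviations between groups -0.17 to 0.12). No paired analysis was possible for the retention levels because the listed libraries carry no replicate number. The cause of these changes was not tested. With 2 libraries a group, single introns with few reads limit what can be told.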
